A study of Homo sapiens with 6 samples.

Results

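UCA1 and 9 other well-studied long noncoding RNA genes (MALAT1, NEAT1, GAS5, HOTAIR, TUG1, SNHG1, DLEU2, PVT1 and EPB41L4A-AS1) were followed in breast cancer cells with and without a knockdown of the histone methyltransferase G9a. Of these 10 genes, 5 had a probe set that the platform annotation pairs with that gene alone, out of 18417 genes so measured: UCA1, MALAT1, TUG1, DLEU2 and EPB41L4A-AS1. GAS5 and SNHG1 were covered only by 9 probe sets shared with small nucleolar RNAs. For NEAT1, HOTAIR and PVT1 the platform annotation used here listed no probe set, so their levels were not analysed. UCA1 was selected on its higher level in the knockdown arrays, and the other genes were listed by name with that result known; for each gene the probe set with the highest mean over the arrays was kept. The differences of these genes between knockdown and control are therefore given as descriptions without a p-value.

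Total RNA was hybridised to single-colour arrays, and each value is a log2 intensity per probe set and array. The control group was 3 arrays of untreated parental MDA-MB231 cells, a long-established human line derived from metastatic breast cancer. The knockdown group was 3 arrays of the same line with G9a stably knocked down, all from 1 clone and described by the submitters as less metastatic. Both groups grew in DMEM/F12 with serum and were harvested in logarithmic growth. With 1 clone against untreated parental cells, effects of the knockdown, of making the clone and of that clone's traits cannot be told apart. The labels do not say whether replicates were separate cultures, so the p-values reflect the scatter of these samples alone, which may be technical. Each difference is the knockdown mean less the control mean in log2 units, and its standard error (SE) comes from limma. In such bulk RNA, fewer cells of a type and less RNA per cell cannot be told apart.

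EHMT2, the gene of G9a, read 10.21, 10.27 and 9.93 in control and 9.66, 9.59 and 9.51 in the knockdown. It fell by 0.55 ± 0.10 (SE, n = 3 per group; limma, adjusted p = 0.0259), and with 1 array left out the difference ran from -0.66 to -0.49, past the threshold in 1 of those 6 fits, the one without control replicate 3. The line's mesenchymal markers VIM, CD44, EGFR and AXL had control means of 11.7 to 13.6, and the luminal marker genes ESR1, PGR and GATA3 had 5.42 to 9.26. Of 4 breast epithelial markers 1 passed: the cadherin CDH1 rose by 0.45 ± 0.07 (SE; limma, adjusted p = 0.0177). Of 3 endothelial markers 1 passed: CDH5 rose by 0.71 ± 0.12 (SE; limma, adjusted p = 0.0210), and the mean over the 3 was 7.38 in control and 7.79 in the knockdown. None of 3 leukocyte and 4 fibroblast markers passed, and the part of these markers in the results was not tested. Control replicate 3 stood apart from the other arrays: 297 genes lay over 0.5 log2 from the mean of the other control arrays, against 28 to 112 genes for each of the other arrays within its own group.

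Long noncoding RNAs are transcripts without a long reading frame that act as RNA, by scaffolding proteins, by guiding chromatin enzymes, or as the precursors of small RNAs. UCA1 was named for bladder carcinoma and is raised in several epithelial tumours, breast cancer among them. MALAT1 and NEAT1 are abundant nuclear RNAs, of splicing speckles and of paraspeckles. HOTAIR, from the HOXC cluster, is known for binding the H3K27 methylation complex PRC2 and the LSD1 demethylase complex. GAS5, SNHG1 and EPB41L4A-AS1 carry small nucleolar RNAs in their introns or transcript, and spliced GAS5 and SNHG1 are degraded by nonsense-mediated decay. DLEU2 is the host transcript of the microRNAs miR-15a and miR-16-1, which restrain cell cycle and survival genes, and PVT1 is a neighbour of MYC.

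The mature microRNAs of the DLEU2 locus are shown because DLEU2 had the largest difference of the measured members after UCA1, and its small RNA products have probe sets of their own. Sequences are from RefSeq (GRCh38.p14), 5′ to 3′, with the seed (bases 2 to 8) in capitals; miR-15a-5p lies at chr13:50049167-50049188 and miR-16-5p at chr13:50049027-50049048, both on the minus strand. Both share the seed AGCAGCA.
hsa-miR-15a-5p: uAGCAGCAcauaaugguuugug
hsa-miR-16-5p: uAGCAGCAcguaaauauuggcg

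The start regions of DLEU2 and MALAT1 are shown because these members have a TATAAA sequence just before an annotated start. RefSeq start windows of 300 bases (250 before the start and 50 from it on) were read for 6 of the 10 genes, in 8 windows. UCA1, NEAT1 and HOTAIR had no window in the source, and PVT1 was left out of the reading. The motif TATAAA, searched on both strands, occurred in 3 of the 8, and in 11.5% of all 35116 windows. On the gene's own strand it began 33 bases before the first DLEU2 start and 30 bases before the second MALAT1 start, and SNHG1 had it on the other strand. The gene's strand held it in 7.33% of all windows, and in 2.53% within the 40 bases that begin 50 bases before the start, where both of these lie. These are descriptions of letters in the windows, not of binding. Capitals mark the motif; the windows are chr13:50125492-50125791 on the minus strand and chr11:65498795-65499094 on the plus strand (GRCh38.p14).
DLEU2, first start: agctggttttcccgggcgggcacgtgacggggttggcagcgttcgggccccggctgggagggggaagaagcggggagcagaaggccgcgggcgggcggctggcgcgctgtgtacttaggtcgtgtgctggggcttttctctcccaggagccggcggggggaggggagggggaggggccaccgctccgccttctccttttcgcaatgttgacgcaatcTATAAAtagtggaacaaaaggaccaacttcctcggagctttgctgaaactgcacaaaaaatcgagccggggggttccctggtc
MALAT1, second start: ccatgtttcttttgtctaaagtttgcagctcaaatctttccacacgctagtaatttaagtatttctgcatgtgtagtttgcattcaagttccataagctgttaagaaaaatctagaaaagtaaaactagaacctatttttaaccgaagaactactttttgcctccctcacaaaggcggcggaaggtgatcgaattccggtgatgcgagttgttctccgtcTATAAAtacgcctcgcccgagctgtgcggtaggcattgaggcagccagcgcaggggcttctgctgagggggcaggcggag
The windows also differed in CpG content, and DNA methylation was not measured. MALAT1's first window held 37 CpG pairs, SNHG1 30, TUG1 28 and the DLEU2 windows 24 and 23, while MALAT1's second held 14, EPB41L4A-AS1 7 and GAS5 5; the median over all windows was 14.

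UCA1 read 9.51, 9.32 and 9.52 in control and 10.54, 10.90 and 10.69 in the knockdown. Every knockdown array lay above every control array, and the lowest knockdown value was 1.02 above the highest control value, which is more than the spread inside either group (0.20 in control and 0.36 in the knockdown). The means were 9.45 ± 0.11 and 10.71 ± 0.18 (SD, n = 3), a difference of 1.26 ± 0.10 (SE), or 2.39-fold. With each array left out in turn it was 1.17 to 1.34. Of 628 other genes that RefSeq types as long noncoding and that were measured singly, none had so large a positive difference. These values chose the gene and support nothing further.

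**Figure D1:**
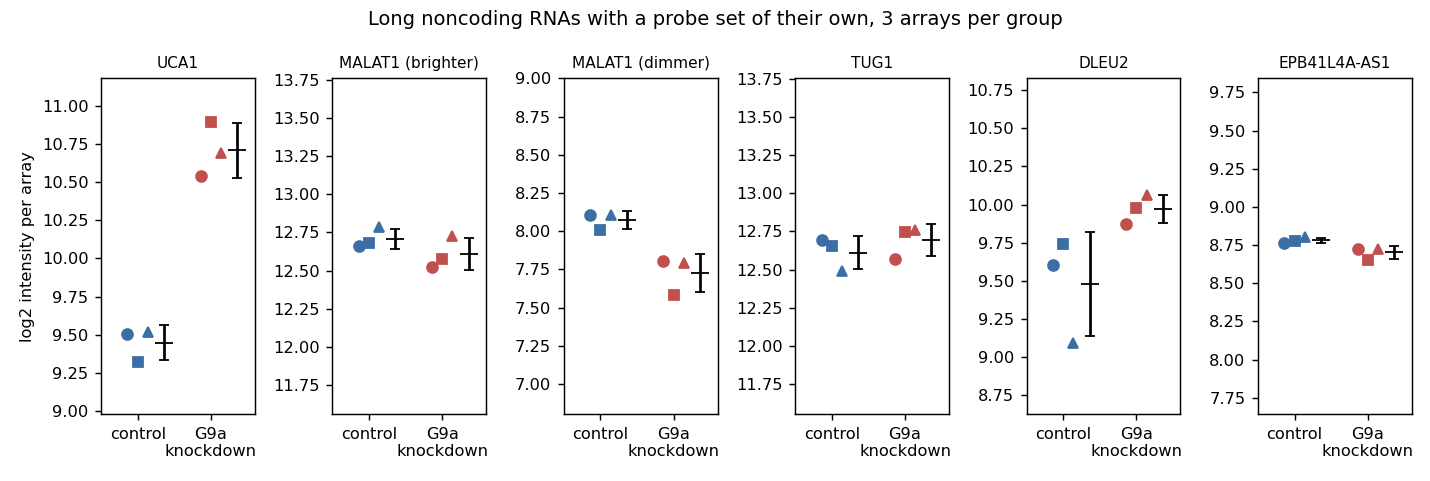
Log2 intensity (vertical axis, 2.2 log2 units high in every panel) of the 5 measured long noncoding RNAs, with both MALAT1 probe sets; circles, squares and triangles are replicates 1, 2 and 3, and the bars show the mean ± SD of 3 arrays. UCA1 separates the groups by 1.02, while MALAT1 (brighter probe set) and TUG1 overlap.

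DLEU2 read 9.61, 9.74 and 9.09 in control and 9.87, 9.98 and 10.06 in the knockdown. The groups did not overlap, but the gap between them was 0.13 and control replicate 3 was 0.58 below the mean of the other control arrays. The means were 9.48 ± 0.34 and 9.97 ± 0.09 (SD, n = 3), a difference of 0.49 ± 0.15 (SE). Without control replicate 3 the difference was 0.30, and over all 6 fits with an array left out it ran from 0.30 to 0.62.

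The precursor probe sets inside DLEU2 did not show the same pattern. MIR15A read 7.26, 7.03 and 6.98 in control and 7.08, 6.95 and 6.89 in the knockdown, with overlapping groups and a difference of -0.12 ± 0.09 (SE; limma, adjusted p = 0.516). MIR16-1 read 4.31, 4.35 and 4.33 in control and 4.30, 4.45 and 4.27 in the knockdown, a difference of 0.0099 ± 0.0673 (SE; limma, adjusted p = 0.954). Both microRNAs printed above were thus read here only through their precursor genes, which stood at the 25.5 (MIR15A) and 1.63 (MIR16-1) percentile of all genes by mean signal, and no detection call was used. DLEU1, the long noncoding gene next to DLEU2, was at 0.11 ± 0.13 (SE; limma, adjusted p = 0.670).

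MALAT1 was the member with 2 probe sets of its own. The brighter one, kept by the rule, read 12.66, 12.68 and 12.78 in control and 12.52, 12.57 and 12.72 in the knockdown. Its groups overlapped and its difference was -0.10 ± 0.07 (SE), with -0.16 to -0.06 when 1 array was left out and -0.02 with array weights. The dimmer one read 8.10, 8.0 and 8.11 in control and 7.81, 7.58 and 7.79 in the knockdown, with no overlap and a difference of -0.34. Both differences were negative, that of the dimmer probe set was further from 0, and averaging both probe sets gave -0.22. Over the 6 arrays their Pearson r was 0.613, a description of 6 points that share their arrays.

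TUG1, a long noncoding gene that the current RefSeq table types as protein coding, read 12.69, 12.66 and 12.49 in control and 12.57, 12.75 and 12.76 in the knockdown. The groups overlapped, and the difference was 0.08 ± 0.08 (SE), with 0.02 to 0.14 when 1 array was left out. EPB41L4A-AS1 read 8.77, 8.77 and 8.80 in control and 8.73, 8.65 and 8.72 in the knockdown. Its groups did not overlap, though they were 0.04 apart and the difference was -0.08 ± 0.06 (SE). The small nucleolar RNA within it, SNORA13, was at 0.02 ± 0.13 (SE; limma, adjusted p = 0.963).

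Of the 5 measured members, 1 (UCA1) was called in the limma fit over all genes at an adjusted p of 0.05, where 3.05% of all genes were called (562 of 18417; 1.28% higher and 1.78% lower), and 3 had groups that did not overlap, where 27% of all genes did. Since the contrast chose the list, nothing is read from these counts. The median difference of the 5 was 0.08, and that over all genes was 0.03.

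GAS5 and SNHG1 could be followed only through their snoRNA probe sets. These RNAs guide modification of ribosomal and spliceosomal RNA and are cut from the introns of the host transcript. GAS5 covered 10 probe sets, 3 of them shared in the annotation with the host and 7 naming a snoRNA alone. Their differences ran from -0.54 to 0.10 with a median of 0.05, and in all 10 the groups overlapped, where 27% of all genes had groups that did not.

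The probe set shared by SNORD80 and GAS5 gave the lowest of these, with 9.89, 9.72 and 9.08 in control and 8.98, 9.45 and 8.64 in the knockdown. Its arrays spread over up to 0.815 inside a group, more than the size of its difference of -0.54. The probe set of SNORD47 and GAS5 read 10.83, 10.75 and 10.81 in control and 10.21, 10.81 and 10.74 in the knockdown, so that knockdown replicate 1 alone stood low. The probe set of SNORD76 and GAS5 differed by 0.09.

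SNHG1 covered 8 probe sets, 6 shared and 2 of a snoRNA alone, and their differences ran from -0.22 to 0.16 with a median of 0.03. SNORD28 had the lowest, with 11.09, 10.87 and 10.83 in control and 10.65, 10.77 and 10.70 in the knockdown. It was the 1 probe set of the 18 whose groups did not overlap, against 27% of all genes, and it did not pass (-0.22 ± 0.08, SE; limma, adjusted p = 0.193). SNORD30, from the same transcript, was at 0.04 ± 0.09 (SE; limma, adjusted p = 0.837). Control replicate 1 was above control replicate 3 in 17 of the 18 probe sets, and the part of that array difference in the results was not tested. Whether a probe set reads the host transcript or the processed snoRNA cannot be told apart here.

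**Figure D2:**
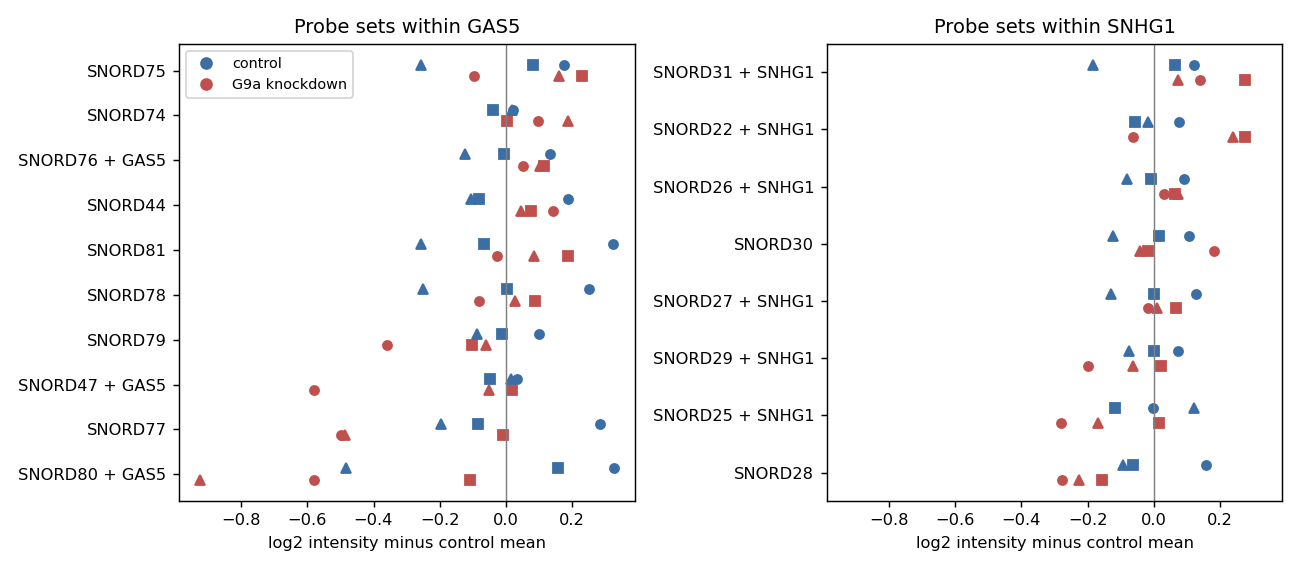
Log2 intensity minus the control mean (horizontal axis) for the 18 probe sets within GAS5 (left) and SNHG1 (right); blue is control and red the G9a knockdown, with circles, squares and triangles for replicates 1, 2 and 3. Groups overlap in 17 of the 18 probe sets, and SNORD28 is the exception.

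A wider list of 82 noncoding RNA and host genes, chosen for their roles, had 23 that were measured singly, of which RefSeq types TAF1D and TINCR as protein coding. None of the 23 passed the limma test over all genes, where 3.05% of all genes were called. An unadjusted p below 0.05 was found for 9 of the 23 (4 higher and 5 lower), against 19.4% of all genes. With array weights 8 passed, against 18.1% of all genes, with a variance trend 2, against 5.88%, and with a two-sample comparison of each gene alone 0 of the 23 and 0 of all genes. Their median difference was -0.03. The following examples are given as values.

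Among the snoRNA hosts besides the members, ZFAS1, whose RNA is an intron host of box C/D snoRNAs, read 10.27, 10.30 and 10.23 in control and 9.99, 10.05 and 10.05 in the knockdown. The arrays of the groups did not overlap, and the difference was -0.24 ± 0.06 (SE; limma, adjusted p = 0.0667). It was under the threshold with a variance trend (0.0337), with array weights (0.0062) and with the dimmest of 3 equal bins of genes left out (0.0313). It missed it in all 6 fits that leave out an array (0.0669 to 0.225), with the replicate block (0.150), with every probe set tested (0.153) and in the plain two-sample test (0.0818). SNHG17 differed by -0.03 ± 0.08 (SE; limma, adjusted p = 0.865), and its sign turned with the mean of its probe sets (0.07) and without control replicate 1 (0.02) or knockdown replicate 3 (0.0063).

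Among 6 measured microRNA host transcripts, MIR17HG, which carries the miR-17-92 cluster, had the largest difference (-0.37 ± 0.09, SE; limma, adjusted p = 0.0677), with all 3 knockdown arrays below the control arrays. MIR503HG followed at -0.24 ± 0.14 (SE; limma, adjusted p = 0.407), and its control replicate 3 read 9.65 where replicates 1 and 2 read 9.08 and 9.16. Leaving that array out brought the MIR503HG difference to -0.06. Of 3 measured imprinted or antisense genes, GATA3-AS1 was at 0.25 ± 0.08 (SE; limma, adjusted p = 0.150) and the imprinted MEG3 at 0.21 ± 0.11 (SE; limma, adjusted p = 0.351), or 0.10 without control replicate 1.

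Of 8 measured cancer-linked long noncoding genes, LINC00467 was at 0.38 ± 0.11 (SE; limma, adjusted p = 0.102) and HCP5 at 0.19 ± 0.08 (SE; limma, adjusted p = 0.237). The 3 measured RNA components of ribonucleoproteins all had negative values. RPPH1, the RNA of ribonuclease P, which trims the leading end of transfer RNAs, was at -0.42 ± 0.12 (SE; limma, adjusted p = 0.100). TERC, the telomerase template RNA, was at -0.22 ± 0.08 (SE; limma, adjusted p = 0.201). Without knockdown replicate 3, RPPH1 was at -0.28 and TERC at -0.14.

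Among proteins that work with these RNAs, 47 of 51 listed were measured, and none passed the limma test over all genes. An unadjusted p below 0.05 was found for 9 of the 47 (7 higher and 2 lower), against 19.4% of all genes. With array weights 6 passed, against 18.1% of all genes, with a variance trend 3, against 5.88%, and 0 when each gene was compared alone. Their median difference was 0.03, as over all genes.

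Of the measured paraspeckle proteins, the partners of NEAT1, 11 of 13 had positive differences, against 59.6% of all genes, and their median was 0.08. Their signals were high, with a median at the 90.3 percentile of genes by mean. All genes in the brightest of 3 equal bins had a median difference of -0.0046, and no test of this was made. NUDT21, a subunit of cleavage factor I, read 12.29, 12.32 and 12.19 in control and 12.52, 12.56 and 12.52 in the knockdown (0.27 ± 0.06, SE; limma, adjusted p = 0.0613). RBM14, a paraspeckle coactivator, was at 0.26 ± 0.06 (SE; limma, adjusted p = 0.0733), with no overlap between the groups. Both were under the threshold after quantile normalization (0.0385 and 0.0483) and with a variance trend (0.0099 and 0.0172). Both missed it in all 6 fits that leave out an array (0.0824 to 0.183 for NUDT21 and 0.103 to 0.229 for RBM14) and with the replicate block (0.124 and 0.149), and RBM14 was at 0.19 with the mean of its probe sets (0.141).

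For HOTAIR's partners, the 15 listed genes were all measured and had a median of -0.01. They were genes of PRC2 and of the LSD1 complex, with the repressor REST, which is not a subunit, counted among them. EZH2, the methyltransferase of PRC2, was at 0.23 ± 0.09 (SE; limma, adjusted p = 0.218), or 0.13 without control replicate 3, and its cofactor JARID2 at -0.21 ± 0.07 (SE; limma, adjusted p = 0.140). For the speckle proteins that meet MALAT1, the median of 12 was 0.0079; the splicing factor SRSF2 was at 0.19 ± 0.06 (SE; limma, adjusted p = 0.122), and METTL16, which binds the 3′ end of MALAT1, at -0.21 ± 0.09 (SE; limma, adjusted p = 0.245). For nonsense-mediated decay, which removes spliced GAS5 and SNHG1, 7 of 10 factors were measured and their differences ran from -0.12 (SMG1, a kinase) to 0.12 (UPF1, the helicase on which SMG1 acts). SMG1 ran from -0.19 without control replicate 3 to -0.06 without control replicate 1, and UPF1 was at 0.07 with array weights.

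The genes beside each member are given next. Sides were set by start position, so genes inside a member can count as its neighbours. Among them are all 5 genes after GAS5, MIR15A in DLEU2 and SNORD28 in SNHG1. Taking the 5 tested genes on either side in RefSeq order, the 10 members had 90 different neighbours, of which 2 fell and none rose in the limma fit, or 2.22% against 3.05% of all genes. Without knockdown replicate 1, or without replicate 3, neither of them passed.

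UCA1 lies among olfactory receptor genes and CYP4F genes, which encode fatty acid hydroxylases. None of its 10 neighbours passed, and their differences ran from -0.15 to 0.19 with a median of 0.08. Nearest to it, OR10H1 was at 0.05 ± 0.13 (SE; limma, adjusted p = 0.874) and CYP4F2 at 0.15 ± 0.14 (SE; limma, adjusted p = 0.614). CYP4F11, CYP4F12 and LINC00661 were at 0.13, 0.11 and 0.19 and also did not pass, and in all 10 neighbours the groups overlapped, where 27% of all genes had groups that did not. These neighbours were dim, at the 3.90 to 35.3 percentile of all genes by mean, and UCA1 was at the 73.0 percentile.

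The 10 neighbours of DLEU2 ran from -0.12 (MIR15A, which lies inside DLEU2) to 0.22 with a median of 0.02, and none passed. SPRYD7, the nearest on one side, was at -0.0047 ± 0.0604 (SE; limma, adjusted p = 0.975). Of the genes around MALAT1 and NEAT1, LTBP3, which binds latent TGF-beta, was at 0.28 ± 0.07 (SE; limma, adjusted p = 0.0686) with no overlap, opposite in sign to MALAT1, and SLC25A45 on the other side was at 0.21 ± 0.07 (SE; limma, adjusted p = 0.151). Next to TUG1, MORC2 was at -0.07 ± 0.06 (SE; limma, adjusted p = 0.512) and SMTN at -0.17 ± 0.08 (SE; limma, adjusted p = 0.281).

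EPB41L4A-AS1 lies in a stretch where values went both ways. STARD4, a sterol carrier gene, fell by 0.84 ± 0.12 (SE; limma, adjusted p = 0.0125); it read 9.62, 9.64 and 10.06 in control and 8.87, 8.96 and 8.97 in the knockdown, and missed the threshold without knockdown replicate 1 or 3. EPB41L4A, the protein-coding partner on the opposite strand, was at -0.21 ± 0.08 (SE; limma, adjusted p = 0.225) with no overlap, NREP was at 0.24 ± 0.07 (SE; limma, adjusted p = 0.0981) and EPB41L4A-DT at 0.16 ± 0.07 (SE; limma, adjusted p = 0.253). The median of the 10 was -0.02.

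For the members without a probe set of their own, the surroundings were as follows. Around HOTAIR, HOXC12 was at 0.05 ± 0.08 (SE; limma, adjusted p = 0.752) and HOXC11 at 0.24 ± 0.12 (SE; limma, adjusted p = 0.322), and none of 10 passed. Around PVT1, LRATD2 fell by 0.57 ± 0.11 (SE; limma, adjusted p = 0.0355), with 9.05, 8.97 and 9.41 in control and 8.56, 8.63 and 8.52 in the knockdown; of the 6 fits that leave out an array, it passed in 1, the fit lacking control replicate 3. MYC, the nearest gene, was at -0.18 ± 0.07 (SE; limma, adjusted p = 0.214). CENPL, beside GAS5, was at 0.13 ± 0.12 (SE; limma, adjusted p = 0.586), and WDR74, beside SNHG1, at -0.04 ± 0.09 (SE; limma, adjusted p = 0.839).

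**Figure D3:**
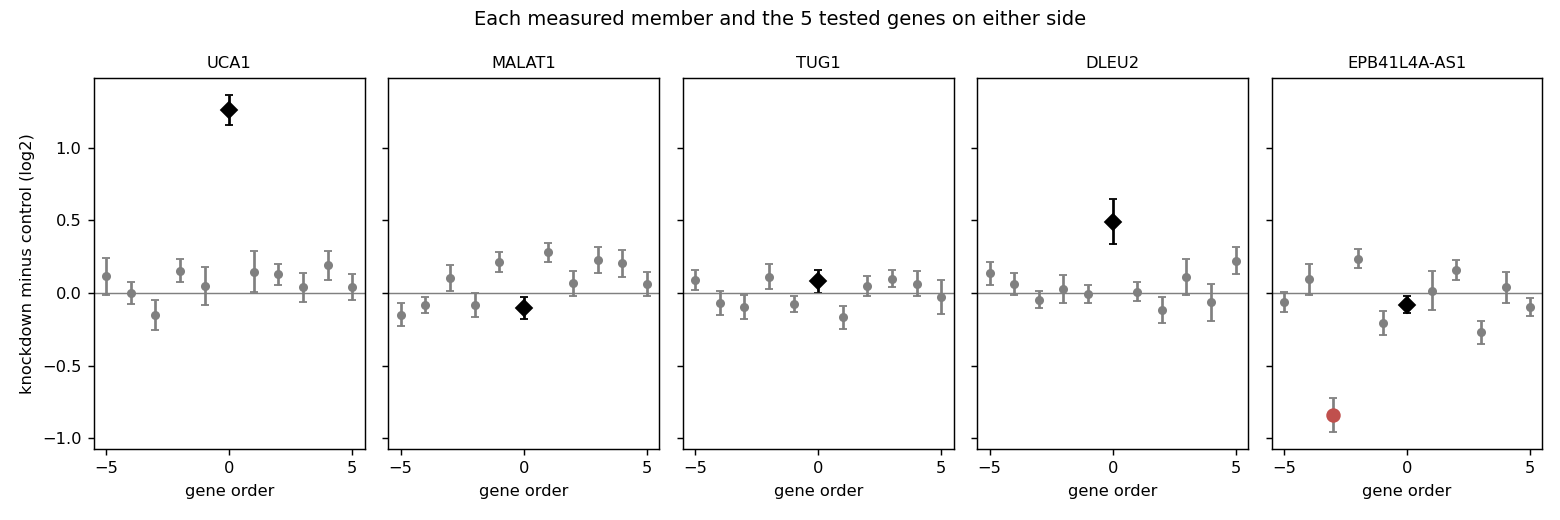
Knockdown minus control (log2, vertical axis) for each measured member (black diamond at 0) and the 5 tested genes on either side in gene order (horizontal axis); bars are SE and the red point passed the limma test. UCA1, selected for its value, is at 1.26 with neighbours from -0.15 to 0.19, DLEU2 is at 0.49 with neighbours from -0.12 to 0.22, and STARD4 is the red point beside EPB41L4A-AS1. Genes inside a member can count as neighbours, such as MIR15A, the lowest at DLEU2.

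Of the 628 other singly measured genes of RefSeq lncRNA type, limma called 0.955%, against 3.05% of all genes, with 5 that rose and 1 that fell. Their signals were low, with a median at the 23.7 percentile of genes by mean. With all genes split by mean into 3 equal bins, the shares in the dimmest bin were 1.13% of 442 lncRNA genes and 1.21% of all genes, and in the middle bin 0.578% of 173 and 4.20%. No test of this difference was made.

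LINC00518, an intergenic gene known from melanoma, had the largest rise among the 5 that passed, from 7.54, 7.43 and 7.35 in control to 8.09, 8.06 and 7.84 in the knockdown (0.56 ± 0.09, SE; limma, adjusted p = 0.0181). LINC02870 (0.45 ± 0.09), LINC01940 (0.38 ± 0.06), LOC286359 (0.36 ± 0.08) and C1orf220 (0.32 ± 0.06; all SE, limma, adjusted p from 0.0251 to 0.0483) also rose. FAM222A-AS1, an antisense gene, fell by 0.42 ± 0.08 (SE; limma, adjusted p = 0.0391). With 1 array left out in turn, LINC00518 passed in 3 of 6 fits, LOC286359 in 0 and the other 4 in 1 each. All of them passed with array weights, and none with every probe set tested or in the plain two-sample test. After quantile normalization LINC00518 and LINC01940 passed. C1orf220, LINC02870, LOC286359 and FAM222A-AS1 then did not (limma, adjusted p = 0.0745, 0.0648, 0.0597 and 0.0506). The difference of DLEU2 was exceeded by 2 of the 628, those of ZNF667-AS1 (0.67, not past the threshold and named after its value was seen) and LINC00518, and MALAT1 and EPB41L4A-AS1 had 54 and 68 of them below.

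**Figure D4:**
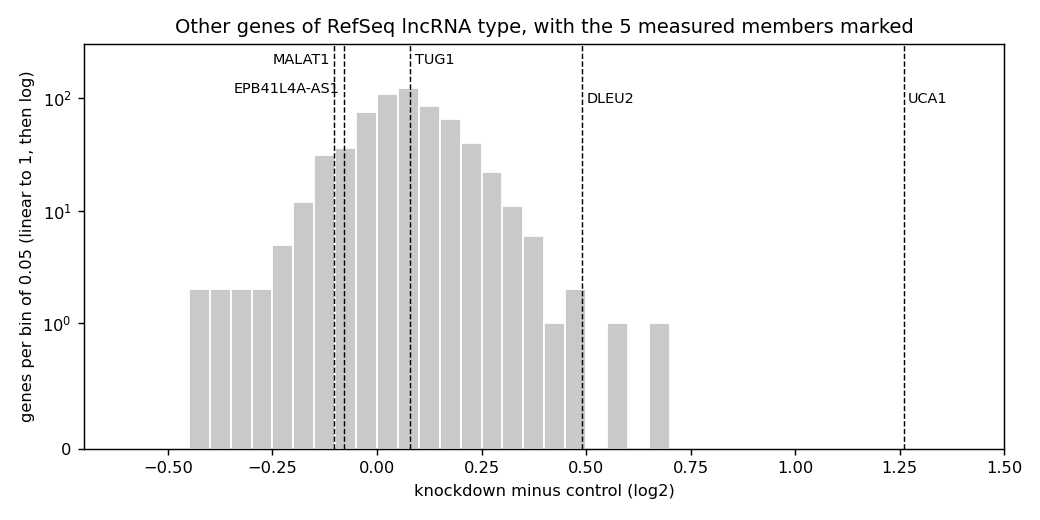
Number of genes (vertical axis, linear to 1 and then logarithmic) by knockdown minus control in log2 (horizontal axis, bins of 0.05) for the 628 other genes of RefSeq lncRNA type; dashed lines mark the 5 measured members. UCA1 at 1.26 lies beyond the highest of the 628 (0.67), and MALAT1, EPB41L4A-AS1 and TUG1 lie within the bulk.

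Genes whose pattern over the 6 arrays was most like that of UCA1 were found by Pearson r among 143 genes whose highest and lowest arrays differed by at least 1 log2 unit. The highest were SSX1 (r = 0.982) and SSX6P (0.982), a cancer-testis gene and a related pseudogene, MISP (0.970), a mitotic spindle positioning gene, CCDC190 (0.953) and TNFSF18 (0.942), a TNF family ligand. SSX1 read 10.84, 10.82 and 10.79 in control and between 11.95 and 12.07 in the knockdown, and MISP 7.76, 7.70 and 7.65 against 8.73, 8.65 and 8.60. The most opposite were PDE3B (r = -0.997), a cyclic nucleotide phosphodiesterase, CNNM1 (-0.990), GPR50 (-0.978), GPC4 (-0.975), a glypican, and SLC16A7 (-0.951), a monocarboxylate transporter. PDE3B read 7.41, 7.51 and 7.42 in control and 6.72, 6.42 and 6.67 in the knockdown, so that knockdown replicate 2 was lowest for PDE3B and highest for UCA1. These r values describe 6 points in 2 groups and follow mainly the group difference. Among the members, UCA1 had r = 0.722 with DLEU2, 0.462 with TUG1, -0.536 with MALAT1 and -0.886 with EPB41L4A-AS1 over the same 6 arrays. The limit of 1 log2 unit was not applied to these pairs, and EPB41L4A-AS1 lay between 8.65 and 8.80 on all arrays.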

How the data were processed

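The authors deposited 1 log2 value per probe set and array; how they were summarised and normalized is not given in the sources used here, and the log2 base was inferred from the range, 2.13 to 14.8. Array medians lay between 7.79 and 7.86. No detection call was used; precision is limited by having 3 arrays a group. Of 33297 probe sets, 19460 had 1 gene symbol in the platform annotation, 1754 several and 12083 none. Symbols were updated through Entrez numbers against RefSeq GRCh38.p14 (19429 matched), whose gene order also gave the neighbours. The probe set with the highest mean represented each of 18417 genes. All genes were tested two-sided with limma 3.58.1 in R 4.3.3 (lmFit, eBayes; 4 residual degrees of freedom; Benjamini-Hochberg; threshold 0.05), and the steps were tested on simulated data. The labels do not say whether equal replicate numbers pair the arrays, and the main fit did not pair them. Deviations of same-numbered arrays from the group means correlated at -0.246, 0.122 and 0.0877, which cannot settle this with 3 arrays a group. Members and lists were chosen with earlier results of these data known. Named genes were the members, up to 4 passing genes per list (or the 2 largest), passing and nearest neighbours, up to 6 rises and falls among lncRNA genes, and 5 genes most and least like UCA1. DLEU1, NREP, EPB41L4A-DT, CYP4F11, CYP4F12 and LINC00661 were named after their values were seen. Alternatives were quantile normalization, median centring, a filter, a variance trend, array weights, mean probe sets, every probe set, a block, a plain two-sample test and each array left out.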

Additional observations from a re-analysis of the deposited data

How the results depend on the processing

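The differences of UCA1, DLEU2, TUG1, EPB41L4A-AS1 and MALAT1 kept their sign in all 15 alternatives run. Several of these could not change a difference. The filter, the variance trend, the replicate block, every probe set and the plain test left each as in the main fit. Averaging probe sets could move only MALAT1, which went to -0.22. UCA1 ran from 1.17 to 1.37, and as it was selected for its rise, its kept sign supports nothing further. Calls over all genes (235 higher, 327 lower) were 398 and 574 with the dimmest of 3 equal bins of genes left out, 434 and 649 with a variance trend, 1718 and 1610 with array weights, 20 and 27 with every probe set tested, and 0 and 0 by the plain two-sample test. With the replicate block they were 101 and 116, and 1 of the 2 lower neighbours passed. With 1 array left out they ran from 21 to 222 and from 23 to 313, and lower neighbours from 0 to 2. Neighbours called lower were 4 with array weights, and 0 with every probe set tested or the plain test; called higher, 1 with the dimmest genes left out, 2 with a trend and 8 with array weights. Partner proteins called higher were 2 after quantile normalization, 2 with the dimmest genes left out, 3 with a trend and 4 with array weights, and called lower 2 with array weights. In the wider noncoding list 3 were higher and 5 lower with array weights, and 1 and 2 lower with the dimmest genes left out and with a trend. The causes of these changes were not tested; leaving out the dimmest bin also cut the genes tested from 18417 to 12278. EHMT2 stayed negative, with no call in 7 of 15 alternatives, 5 of them with 1 array left out. Dim signals were not separated from background.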

Other observations

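Small RNA genes, those inside the members included, had 1 call each among microRNA and snoRNA genes. The share called was 3.05% over all genes and 1.21% in the dimmest of 3 equal bins. Median levels of these microRNA and snoRNA genes stood at the 10.5 and 27.4 percentile of all genes. Of 173 genes of microRNA type measured singly, MIR100 fell by 0.77 ± 0.14 (SE; limma, adjusted p = 0.0317) and none rose. It read 4.94, 4.75 and 5.37 in control and 4.28, 4.15 and 4.32 in the knockdown, with no overlap, though these signals are low on this array. Of 175 snoRNA genes, SNORD4B, a box C/D snoRNA, fell by 0.38 ± 0.07 (SE; limma, adjusted p = 0.0355), from 10.39, 10.17 and 10.24 to 9.95, 9.86 and 9.85, and none rose. Of 20 snRNA genes none passed with limma, 6 had an unadjusted p below 0.05, against 19.4% of all genes, and 4 passed with array weights, against 18.1%. Both named genes were named after their values were seen.

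Genes of lncRNA type had a median difference of 0.07, against 0.03 over all genes. With no overlap between the groups, 84 of the 628 lay higher and 11 lower. Over all genes 14.3% lay higher and 12.7% lower in this way. The lncRNA share was slightly under that of all genes for higher values, and far under it for lower values. These shares were not taken within bins of signal level, and the difference was not tested. In the dimmest of 3 equal bins of genes by mean, where 442 of the 628 fall, the medians were 0.07 for lncRNA genes and 0.05 for all genes.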
